A study of Mus musculus with 8 samples.

Results

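Binding of OTX2 was examined around 4 genes of the Notch pathway, the receptor gene Notch1, the ligand genes Dll1 and Jag1 and the target gene Hes1. Peaks were taken as belonging to a locus when their centre lay within 200 kb of a stated gene position in the mouse build mm9. These positions were chr2:26335000 for Notch1, chr17:15508000 for Dll1, chr2:136925000 for Jag1 and chr16:30066000 for Hes1. They are not stated to be transcription start sites, and genes other than these 4 may also lie in the windows. The windows of 400 kb held 39 of the 26317 peaks in the 8 deposited peak lists. All 39 came from OTX2 libraries, and only 846 of the 26317 peaks were in control lists.

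The tissue was the basal ganglia primordium and septum of wild-type CD-1 mouse embryos (stage E12.5), each sample being a pool of several embryos. Chromatin was precipitated with an anti-OTX2 antibody (3 libraries), left unprecipitated as input (3 libraries) or precipitated with normal goat IgG (2 libraries, none in the third experiment), and no group carried a mutation or a treatment. Nothing in the labels ties an experiment to its own litter, so p-values measure only the spread between these libraries, which may be technical. The lists held 1848, 1298 and 22325 peaks in OTX2 replicates 1, 2 and 3, against 138, 142 and 235 in input replicates 1, 2 and 3 and 149 and 182 in IgG replicates 1 and 2. Each list gives positions and a rank (1 is best) and no height, count or score, and read depth is unknown. The 2 lists of replicate number 3 have track names with a score tag, unlike the other 6, and no source used here states if their peak calling matched. Replicate 3 may therefore be a batch of its own, which the labels do not state, and peak numbers and regions are also given without it.

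Notch signalling is a contact-dependent pathway in which ligands of the Delta-like and Jagged families on one cell bind a Notch receptor on its neighbour. The receptor is then cleaved, and its intracellular domain enters the nucleus, joins the DNA-binding protein RBPJ and switches on targets such as the basic helix-loop-helix repressor gene Hes1. In the embryonic forebrain, including the ganglionic eminences, this pathway keeps neural progenitors from differentiating too early. OTX2 is a homeodomain transcription factor of forebrain and midbrain that binds TAATCC-type sites.

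The promoters of Notch1, Jag1 and Dll1 are shown because of the widest OTX2 peak of each window, described below. Its centre lay within the length of the gene from the stated position, which does not place it at a start. The widest peak of the Hes1 window had its centre within the gene length too, but no Hes1 promoter was matched. Sequences are from RefSeq (GRCm38.p6) and give the 250 bases before an annotated start, 5′ to 3′ along the gene. Capitals mark a complete match to any of 4 motifs searched on both strands: TAATCC, the OTX2 core; TGGGAA, the RBPJ core; CACGTG, an E-box; and CACNAG, the N-box core bound by Hes proteins. They lie on the minus strand at chr2:26503823-26504072 (Notch1), chr2:137116521-137116770 (Jag1), chr17:15376933-15377182 (first Dll1 start) and chr17:15375824-15376073 (second Dll1 start).
Notch1 promoter: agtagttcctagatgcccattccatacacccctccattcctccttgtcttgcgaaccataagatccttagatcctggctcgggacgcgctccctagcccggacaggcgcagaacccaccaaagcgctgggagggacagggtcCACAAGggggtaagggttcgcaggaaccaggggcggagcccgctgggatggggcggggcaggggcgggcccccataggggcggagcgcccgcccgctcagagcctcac
Jag1 promoter: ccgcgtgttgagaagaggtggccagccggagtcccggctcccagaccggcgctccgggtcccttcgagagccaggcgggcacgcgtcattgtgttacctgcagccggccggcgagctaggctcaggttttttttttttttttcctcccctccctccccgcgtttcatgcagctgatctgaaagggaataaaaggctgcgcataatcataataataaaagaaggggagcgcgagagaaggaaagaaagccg
Dll1 promoter at the first start: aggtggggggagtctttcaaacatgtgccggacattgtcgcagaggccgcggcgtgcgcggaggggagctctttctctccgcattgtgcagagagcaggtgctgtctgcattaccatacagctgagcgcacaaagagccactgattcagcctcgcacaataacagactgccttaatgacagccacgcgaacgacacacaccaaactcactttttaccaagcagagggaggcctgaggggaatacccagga
Dll1 promoter at the second start: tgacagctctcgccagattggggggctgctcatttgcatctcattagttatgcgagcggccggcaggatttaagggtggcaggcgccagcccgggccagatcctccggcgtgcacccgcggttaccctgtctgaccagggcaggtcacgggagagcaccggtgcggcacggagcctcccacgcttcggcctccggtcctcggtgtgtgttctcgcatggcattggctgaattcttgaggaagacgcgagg

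None of the 4 sequences held the OTX2 core, the RBPJ core or the E-box, and the Notch1 promoter held 1 complete CACNAG, which begins 108 bases before the start. With the 50 bases after the start included, the Notch1 promoter had another pair of overlapping N-box matches across the start, and the Dll1 promoter at the first start had 1 after it. Over all 32851 promoters of the table (300 bases each), 7.06% held TAATCC, 25.6% TGGGAA, 7.15% CACGTG and 42.5% CACNAG. A wider list of 34 Notch pathway genes had 35 promoters for 28 genes, and the other 6 genes, Hes1 among them, were not matched. TAATCC was found in 1 of these 35 promoters (2.86%), that of Numb, which encodes an inhibitor of Notch. TGGGAA was found in 8 of them (22.9%), among them promoters of the targets Hes5 and Hey2 and of Rbpj itself. CACGTG was found in 4 (11.4%) and CACNAG in 14 (40.0%). The sequences under the peaks themselves were not analysed here, since no mm9 genome was used.

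The first comparison asked whether peaks near these genes were found with the OTX2 antibody and not in control chromatin. The 4 windows together held 3, 3 and 33 peaks in OTX2 replicates 1, 2 and 3, against none in each of the 3 input and 2 IgG libraries. Every OTX2 library was thus above every control library, and replicate 3 stood far above the other OTX2 libraries. OTX2 libraries averaged 13.0 ± 17.3 peaks and input libraries 0 ± 0 peaks (SD, n = 3 each; two-sided exact permutation over library labels, p = 0.10, below which 3 against 3 libraries cannot go; Benjamini-Hochberg adjusted p = 0.125 over 5 tests). Without replicate 3 the mean difference was 3.0 peaks. The control lists were short: 0 of their 846 peaks allows a share of up to 0.355%, and the windows held 0.162%, 0.231% and 0.148% of the peaks of OTX2 replicates 1, 2 and 3. A lower share in controls than in OTX2 lists was therefore not detectable at this list length.

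By locus, the Notch1 window held 1, 1 and 7 peaks in OTX2 replicates 1, 2 and 3. The Jag1 window held 1, 1 and 9 peaks, as did the Hes1 window (exact permutation test against input for each of these 3 loci, p = 0.10, adjusted p = 0.125). Dll1 differed from the other three in having no peak at all in replicates 1 and 2, with 8 in replicate 3 (exact permutation test, p = 1.00, adjusted p = 1.00). With peaks in only 1 library, every relabelling gives a difference of the same size. This p was therefore fixed in advance and says nothing about Dll1. No window held a control peak, and 7.70% of the 6413 bins of 400 kb along chromosomes 1 to 19 and X held one.

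**Figure D1:**
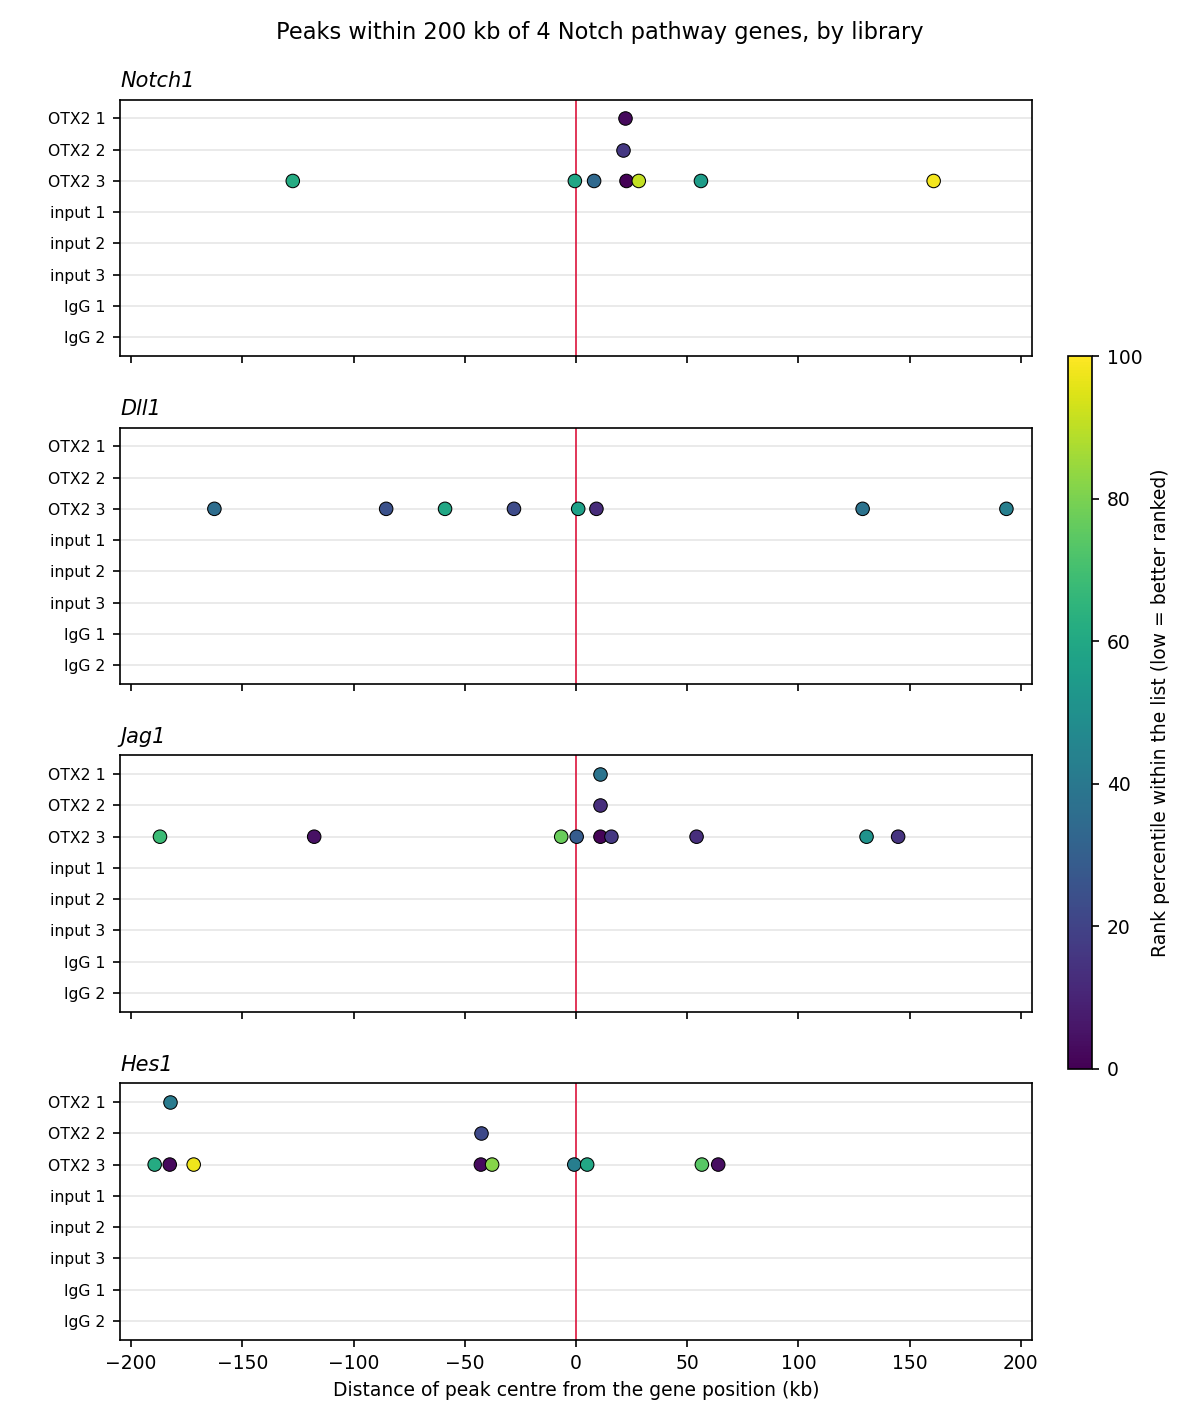
Peaks within 200 kb of Notch1, Dll1, Jag1 and Hes1, 1 row per library; the horizontal axis is the distance of the peak centre from the gene position in kb (mm9, increasing with the coordinate), and colour is the rank as a percentile of its own list, dark being better ranked. The 5 input and IgG rows are empty, Dll1 has peaks in OTX2 replicate 3 only, and Notch1 and Jag1 have a column of peaks from all 3 OTX2 libraries.

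Peaks found in at least 2 OTX2 libraries and free of control peaks (called OTX2 regions here, overlap of at least 1 bp) were present at 3 of the 4 loci. There were 4 such regions among the 1949 of the genome: 1 at Notch1, 1 at Jag1, 2 at Hes1 and none at Dll1. Regions occurred in 21.5% of all 400 kb bins, which is the background beside the 3 windows of 4. The windows held 2.5 regions per Mb (exact Poisson 95% interval 0.681 to 6.40, counting error only), and all chromosomes together 0.762 per Mb, which lies inside that interval. Regions in all 3 libraries were present in 2 of the 4 windows, Notch1 and Jag1, and in 9.90% of bins. The windows are centred on genes and the bins are not, and the genes were chosen with earlier results of these data known. The part of either in the comparison was not tested.

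The region at Notch1, the gene of the receptor itself, was the best ranked of the 4 in replicates 1 and 3, and in replicate 2 that at Jag1 was ranked ahead of it. It spanned chr2:26355307-26360094, 4788 bp, with its centre 22.7 kb above the gene position. It was ranked 44 of 1848 in replicate 1, 210 of 1298 in replicate 2 and 119 of 22325 in replicate 3. All 3 libraries placed it at percentiles of 2.38, 16.2 and 0.533. The peaks differed in extent, being 2180, 345 and 4788 bp wide in replicates 1, 2 and 3. The whole lists differed in width too, with medians of 191, 182 and 827 bp in the same order. Only 8 of the 1848 replicate 1 peaks were at least as wide as the one at Notch1, and 58 of the 22325 replicate 3 peaks. The stretch common to the 3 libraries was 327 bp, from 26356097 to 26356423, and the peak centres were up to 1450 bp apart. When every peak was reduced to 200 bp around its centre, a setting chosen after seeing the data, Notch1 had no region, since the shortened peaks no longer overlapped. The next OTX2 region on the chromosome was 397.9 kb away.

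Jag1 encodes a ligand of the Jagged family. Its region spanned chr2:136935238-136936760, 1523 bp, 11 kb above the gene position. It was ranked 709 in replicate 1, 171 in replicate 2 and 238 in replicate 3, which are percentiles of 38.4, 13.2 and 1.07. The 3 peaks were 261, 243 and 1523 bp wide in replicates 1, 2 and 3, where the whole lists had medians of 191, 182 and 827 bp. They were closely aligned, with centres within 119 bp and 213 bp in common. Unlike the Notch1 region, it was also present with 200 bp peaks. The next region was 593.6 kb away.

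Hes1 encodes a repressor that carries out much of the response to Notch. Neither of its regions was seen in all 3 libraries, and both lay at lower coordinates than the gene position. The nearer region, chr16:30022715-30023755, lay 42.8 kb from the position and was ranked 287 in replicate 2 and 637 in replicate 3, with no peak there in replicate 1. Its 2 peak centres were 1 bp apart, with 323 bp in common. The farther region, chr16:29882504-29884226, lay 182.6 kb from the position and was ranked 758 in replicate 1 and 467 in replicate 3, with no peak there in replicate 2. Its peak centres were 65 bp apart, with 473 bp in common. Both regions rested on replicate 3 and 1 other library, and without replicate 3 no region was left at Hes1, while those at Notch1 and Jag1 were still present in replicates 1 and 2. A gap of 138.5 kb separated the pair.

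Dll1 encodes a Delta-like ligand. The OTX2 region nearest to it lay 622.8 kb away, against 22.7 kb for Notch1, 11 kb for Jag1 and 42.8 kb for Hes1. All 8 peaks of its window were seen in replicate 3 alone, with ranks between 2783 and 13341 of 22325. Of the 20093 peaks of that list ranked after 2232, only 2.64% were overlapped in replicate 1 or 2. The lack of overlap at these 8 peaks therefore does not by itself set Dll1 apart from the list. The best-ranked of them, chr17:15514523-15519844, was also the widest of all 39 peaks at 5322 bp and lay 9.18 kb above the gene position. Only 41 peaks of the replicate 3 list were as wide or wider. The peak nearest to the position, chr17:15508525-15509450, lay 0.988 kb from it and was ranked 12688.

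**Figure D2:**
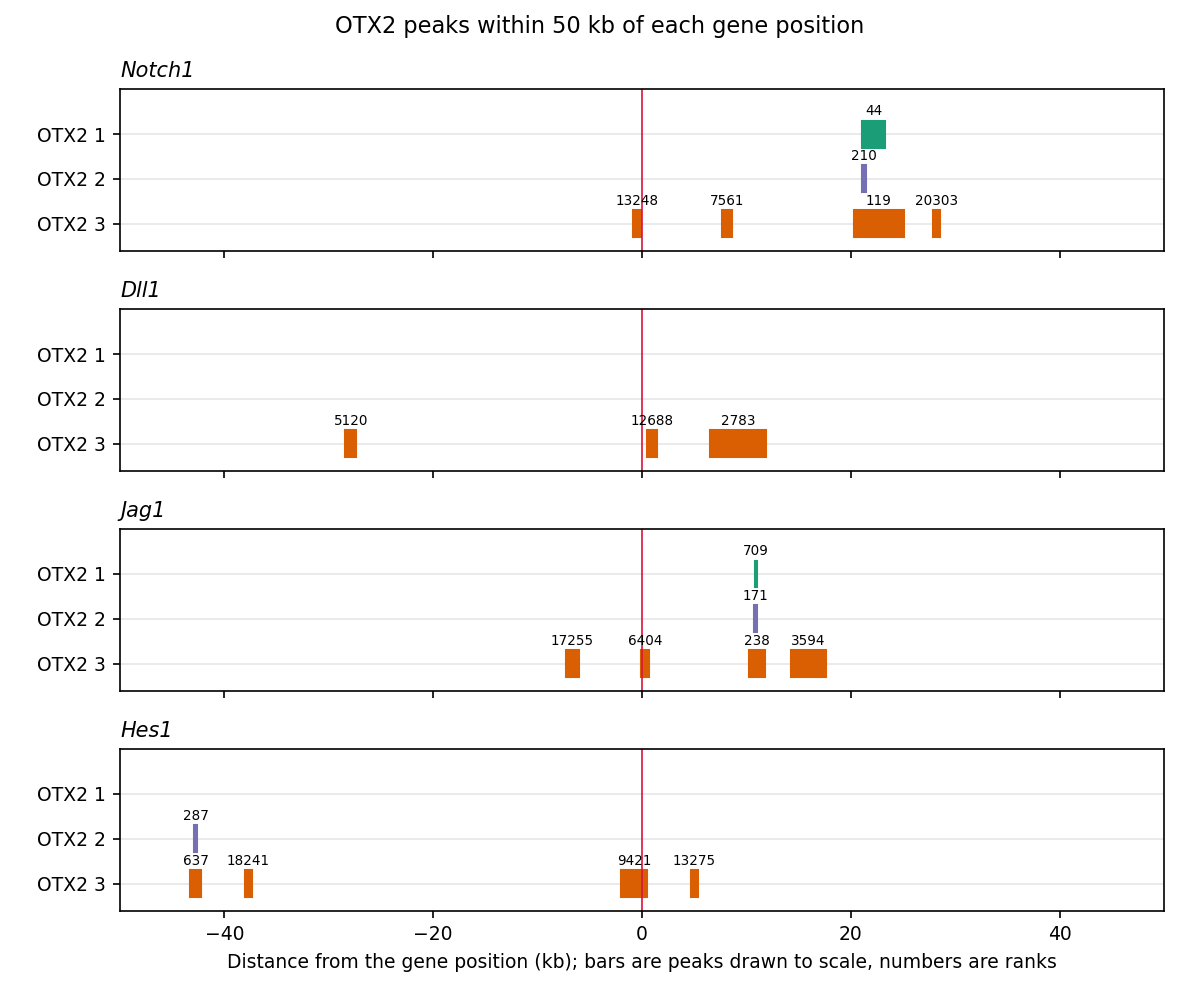
OTX2 peaks within 50 kb of each gene position, drawn to scale along the horizontal axis (kb, mm9), with the rank in its own list above each peak; rows are OTX2 replicates 1 to 3. The overlapping peaks at Notch1 (ranks 44, 210 and 119) and at Jag1 (ranks 709, 171 and 238) lie above the gene position, and the wide replicate 3 peaks at Dll1 (rank 2783) and Hes1 (rank 9421) have no counterpart in replicates 1 and 2.

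Each of the 4 windows held at least 1 replicate 3 peak wider than 2000 bp, a width chosen after seeing the data, and 11.8% of bins held one. The windows also held more replicate 3 peaks of any width, 7 to 9 each against a median of 3 per bin. The part of this in the comparison was not tested. The widest peaks measured 4788 bp at Notch1, 5322 bp at Dll1, 3363 bp at Jag1 and 2466 bp at Hes1, against a median of 827 bp in the whole list (interquartile range 669 to 1080 bp). At Notch1 the widest peak was also the peak of the 3-library region, whereas at Jag1 it was a different peak, chr2:136939239-136942601, 15.9 kb above the position and ranked 3594. At Hes1 the widest peak, chr16:30063993-30066458, covered the gene position itself and was ranked 9421. The Dll1, Jag1 and Hes1 peaks were wide without being among the best ranked. Of the list's peaks at least as wide as each, 39.0%, 35.2% and 11.8% were ranked as low or lower for Dll1, Jag1 and Hes1, against 94.8% for Notch1. The whole set of 33 replicate 3 peaks in the windows was close to the list in width, with a median of 887 bp and quartiles of 746 and 1217 bp. In the GRCm38 annotation Notch1, Dll1 and Jag1 lie on the minus strand and extend over 45.9, 9.58 and 35.1 kb, so that higher coordinates run towards the 5′ end. Whether any of these peaks covered a promoter was not determined, because coordinates were not converted between builds.

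**Figure D3:**
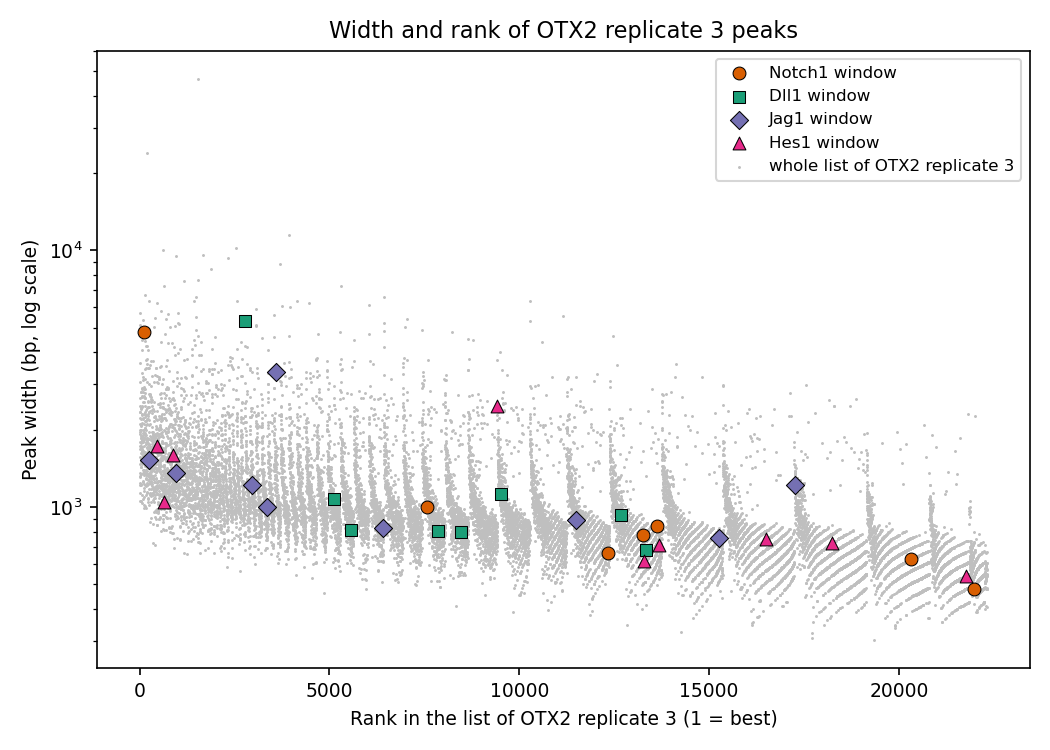
Peak width (bp, log scale) against rank for all 22325 peaks of OTX2 replicate 3 (grey points), with the 33 peaks in the Notch1, Dll1, Jag1 and Hes1 windows marked by symbol. Width falls within successive stretches of ranks and then jumps back, and the widest peaks of Dll1 (rank 2783), Jag1 (rank 3594) and Hes1 (rank 9421) sit above most of the list at their rank.

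Of the 33 replicate 3 peaks in the windows, 29 were seen in no other OTX2 library. Replicate 1 or 2 overlapped 4 of the 33 (12.1%, exact Clopper-Pearson 95% interval 3.40 to 28.2%), and 8.83% of the whole list, so the share in the windows was near the background. The best-ranked 10% of the replicate 3 list supplied 6 of the 33 (18.2%, 6.98 to 35.5%), and 4 of these 6 were overlapped, beside 64.6% of all peaks of that rank class. None of the other 27 was overlapped, beside 2.64% in the list. The intervals cover counting error only, and peaks of 1 list are not replicates.

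The 2 well-ranked peaks without support in replicates 1 and 2 lay at Jag1 and Hes1. At Jag1 it was chr2:136806618-136807976, 117.7 kb below the position and ranked 973. At Hes1 it was chr16:30129142-30130729, 63.9 kb above the position and ranked 872. The best-ranked peak seen only once at Notch1, chr2:26342639-26343632, was ranked 7561 and lay 8.14 kb above the position. The peaks nearest to the positions were all seen in replicate 3 alone and had middling ranks. They lay 0.512 kb from the position at Notch1 (chr2:26334100-26334877, ranked 13248), 0.298 kb from it at Jag1 (chr2:136924885-136925710, ranked 6404) and 0.775 kb from it at Hes1, where the wide peak ranked 9421 was the nearest.

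Ranks in the windows covered nearly the whole of the replicate 3 list. As a percentile of the list, the 33 peaks ran from 0.533 to 98.4 with a median of 42.2. By locus the medians were 59.3 at Notch1 (7 peaks), 36.5 at Dll1 (8 peaks), 16.1 at Jag1 (9 peaks) and 59.5 at Hes1 (9 peaks). Percentiles up to 50 were found for 2 of 7 peaks at Notch1, 6 of 8 at Dll1, 6 of 9 at Jag1 and 4 of 9 at Hes1. Notch1 thus combined the best-ranked peak of the set with mostly low-ranked others. In replicates 1 and 2 the 3 peaks each had median percentiles of 38.4 and 16.2.

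Replicate 3 peaks were denser in the windows than over the chromosomes as a whole. The windows held 20.6 per Mb (exact Poisson 95% interval 14.2 to 29.0, counting error only) and the whole list 8.73 per Mb. That interval leaves out the uneven spread of peaks, with none in 1345 of the 6413 bins. The windows are centred on genes and the bins are not, and the genes were chosen with earlier results of these data known. The part of either in the density was not tested. The median 400 kb bin held 3 replicate 3 peaks (interquartile range 1 to 5, highest 35). As many peaks as the Notch1 window, 7, or more were found in 16.7% of bins. The corresponding shares were 12.6% for Dll1 with 8 peaks and 8.87% for Jag1 and Hes1 with 9 peaks each. The windows made up 0.0626% of the extent of the chromosomes, taken from the lowest to the highest position in any list, and held 0.162% (Clopper-Pearson 95% interval 0.0335 to 0.474%) of replicate 1 peaks and 0.231% (0.0477 to 0.674%) of replicate 2 peaks. With 3 peaks each, these 2 libraries do not show a density above that of the chromosomes.

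**Figure D4:**
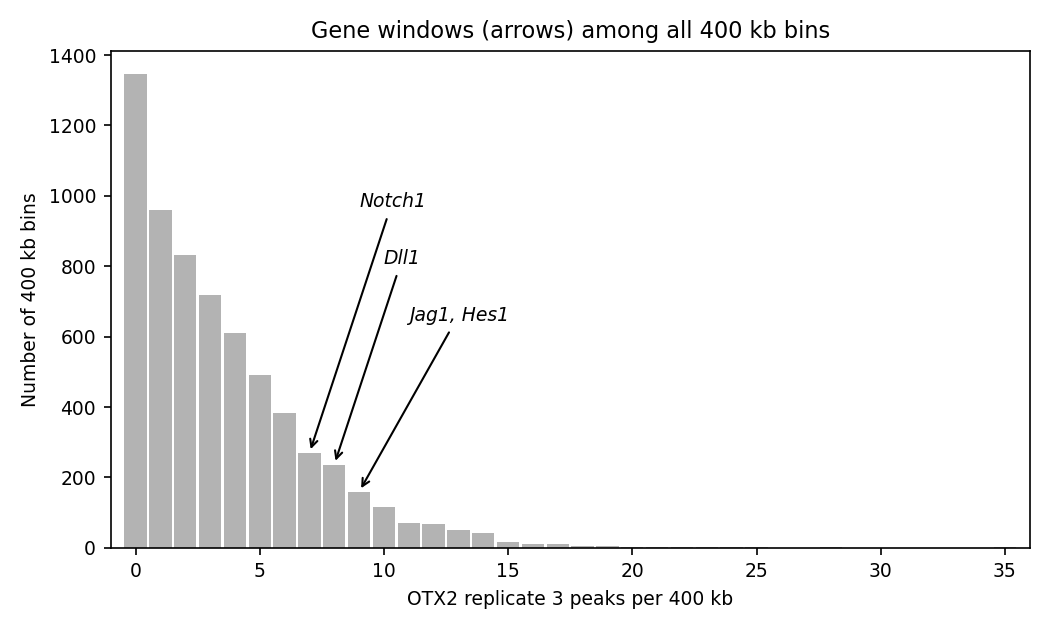
Number of 400 kb bins of chromosomes 1 to 19 and X (vertical axis) by the number of OTX2 replicate 3 peaks they hold (horizontal axis), with arrows at the windows of Notch1 (7 peaks), Dll1 (8), and Jag1 and Hes1 (9 each). All 4 windows lie above the upper quartile of 5 peaks per bin.

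Within the windows, 15 of the 33 replicate 3 peaks (45.5%) lay within 50 kb of the gene position, 6 between 50 and 100 kb, 5 between 100 and 150 kb and 7 between 150 and 200 kb. The nearest band held 4 peaks at Notch1, 3 at Dll1, 4 at Jag1 and 4 at Hes1. The outermost peaks inside the windows were 160.8 kb from the position at Notch1, 193.5 kb at Dll1, 187.0 kb at Jag1 and 189.4 kb at Hes1, with ranks of 21972, 9523, 15247 and 13690. The first peaks beyond them were 241.9 kb away at Notch1 (rank 20495), 207.7 kb at Jag1 (rank 4947) and 226.4 kb at Hes1 (rank 21751), and none lay within a further 100 kb of the Dll1 window. The windows may also reach other genes, whose distances from the positions were not computed. In the order of the GRCm38 annotation, Notch1 is flanked by the protein-coding genes Sec16a and Egfl7, Dll1 by Ermard and Fam120b, Jag1 by Slx4ip and Btbd3, and Hes1 by Opa1 and Cpn2. No peak was assigned to a gene.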

How the data were processed

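The data were ChIP-seq peak lists of 3 OTX2, 3 input and 2 IgG libraries, grouped by sample title. Per the submitters' processing notes BWA, MACS 1.4 and the build mm9 were used. No source used here gives the control, the threshold or the ranked quantity. The authors deposited 1 list per library with start, end and rank, so peaks were not called on pooled samples. Each rank is the deposited order within a list and not a score.

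Peaks were assigned by their centre to windows of 200 kb on each side of 4 stated gene positions. Regions were overlapping OTX2 peaks (at least 1 bp) from at least 2 libraries without an input or IgG peak. Computations used Python 3.11.15, numpy 2.4.6 and scipy 1.17.1, and the region builder was tested on simulated intervals. Peak numbers were compared by an exact permutation test of library labels (5 tests, Benjamini-Hochberg). Shares carry Clopper-Pearson and densities exact Poisson 95% intervals. The limit for a count of 0 is 3 counts. All regions were named, and of single-library peaks the best ranked and the nearest in each window. Read depth is unknown. The genes and lists were chosen with earlier results of these data known. Alternatives were other radii, rank and overlap settings, controls, pairing and each replicate left out.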

Additional observations from a re-analysis of the deposited data

How the results depend on the processing

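The difference between OTX2 and input in peaks of the 4 windows, 13.0, kept its direction in all alternatives run. No control list held a peak in the windows. Leaving out replicates or low-ranked peaks, a smaller radius or adding IgG therefore could not reverse the direction. The difference ranged from 3.0 to 18.0 peaks when 1 replicate was left out. The lowest was without replicate 3, where 2 against 2 libraries allow no p below 0.333. With input and IgG together as controls the difference was again 13.0 and the exact permutation p was 0.036, the smallest that 3 against 5 libraries allow. The control lists were short, so this p does not show a lower share of peaks in the windows for controls. With replicate number as a replicate block the difference was 13.0 (exact sign-flip test, p = 0.25, the smallest that 3 pairs allow). The labels do not say that the numbers mark shared tissue. The number of OTX2 regions, 4, ranged from 2 to 3 when 1 replicate was left out. It was 2 when all 3 libraries were required and 33 when any 1 library was enough. With 200 bp peaks it was 3, and the region at Notch1 was the one lost. Radii of 100 and 500 kb gave 3 and 5 regions and differences of 8.67 and 23.3 peaks, and the better-ranked 50% of each list gave a difference of 8.0. Apart from the test with IgG included, no test of the difference could pass 0.05 at these library numbers, so their p-values say nothing about stability. Of the 34 alternative values of results other than the peak difference, 31 stayed within 1.5 times the count, within the interval or within 1 SD. These limits are wide: a density of 1.25 regions per Mb without replicate 3, against 2.5, still counted as within the interval. The same change as a number of regions, from 4 to 2, did not stay within its limit. Number and density of regions under 1 setting were counted as separate values, so the 34 are not independent. Lists without counts or heights limit all comparisons to the presence and order of peaks.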
